A study of Mus musculus with 12 samples.

Results

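Zinc transporters, metallothioneins and the zinc sensor Mtf1 were followed in the small intestine of mice given a bile acid after transplantation. The set of 9 genes (Slc30a1, Slc30a2, Slc30a10, Slc39a4, Slc39a5, Slc39a14, Mt1, Mt2 and Mtf1) was chosen by its differences between treatments on these same arrays. Those differences are therefore given as a description: whether a member passed a threshold is stated beside the share of all probe sets that did, and supports nothing. A gene was measured where a probe set was annotated to that gene alone, which held for 7 of the 9 genes, with 1 probe set each, among 21408 genes measured in this way and 23991 probe sets in all. Slc30a1 and Slc30a10 have only probe sets annotated together with a further gene, and no value is given for them. A second probe set that names Mtf1 together with another gene was not used either.

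All mice were wild-type BALB/c recipients of an allogeneic transplant: they were irradiated over the whole body and then given marrow cells together with T cells of a C57BL/6N donor, which can cause acute graft-versus-host disease in the gut. Both groups were sampled on day 14 after the transplant. The TUDCA group (n = 6 arrays) received 200 mg/kg of tauroursodeoxycholic acid, a taurine-conjugated bile acid, by daily intraperitoneal injection, and the vehicle group (n = 6 arrays) the same 200 µl volume without it. Values are log2 expression values per probe set, so that 1 unit is a change by a factor of 2 (a value is comparable between arrays but not between genes), and their median over probe sets lay between 5.90 and 5.95 on the arrays. Sample numbers in the labels fall into a low range (2 TUDCA and 4 vehicle arrays) and a high range (4 TUDCA and 2 vehicle arrays) of unstated meaning, and differences were estimated within the ranges. The labels do not identify the mice, so that the spread between arrays is taken as that between animals.

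The description field of the labels names CXCL12-abundant reticular cells, while all other fields name small intestine. Markers of small intestinal epithelium were high, such as the villus protein gene Vil1 with 12.12 ± 0.05 under TUDCA and 12.23 ± 0.07 under vehicle (SD, n = 6 each). Among genes that mark segments, the ileal bile acid transporter Slc10a2 averaged 11.10 ± 0.14 under TUDCA and 11.08 ± 0.14 under vehicle (SD, n = 6 each). Of 8 genes of the proximal segment 0 passed the test in limma, and of 5 measured genes of the distal segment 1 fell, the vitamin B12 receptor Cubn. Over all probe sets 1.52% fell and 1.00% rose in this test. The proximal list had 1 gene below an unadjusted p of 0.05, the iron exporter Slc40a1.

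Cells keep free zinc low by moving it across membranes with carriers of opposite direction. Proteins of the Slc39a (ZIP) family bring zinc into the cytosol and those of the Slc30a (ZnT) family carry it out of the cytosol, across the plasma membrane or into vesicles. Metallothioneins are small cysteine-rich proteins that bind zinc and copper, and Mtf1 is a transcription factor that, on binding zinc, activates Mt1, Mt2 and Slc30a1 through short metal response elements. In the intestine, Slc39a4 takes up dietary zinc at the apical side of enterocytes, and Slc30a2 loads zinc into the granules of mouse Paneth cells.

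In the intestine of TUDCA-treated mice the vesicular exporter Slc30a2, the apical importer Slc39a4 and Mtf1 were lower than in vehicle-treated mice, while the metallothioneins Mt1 and Mt2 had higher averages with wide spread between animals. Of the 7 measured genes 3 passed the threshold of an adjusted p of 0.05 as lower, against 1.52% of all probe sets, and 0 as higher, against 1.00% of all probe sets. The groups did not overlap for 2 of the 7, both lower, against 1.18% of all probe sets. Because the genes were chosen on this contrast, nothing is read from these shares. The median difference of the 7 genes was −0.24, against 0.01 over all probe sets. RNA was taken from whole tissue, so that fewer cells of a type and less RNA per cell cannot be told apart.

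**Figure D1:**
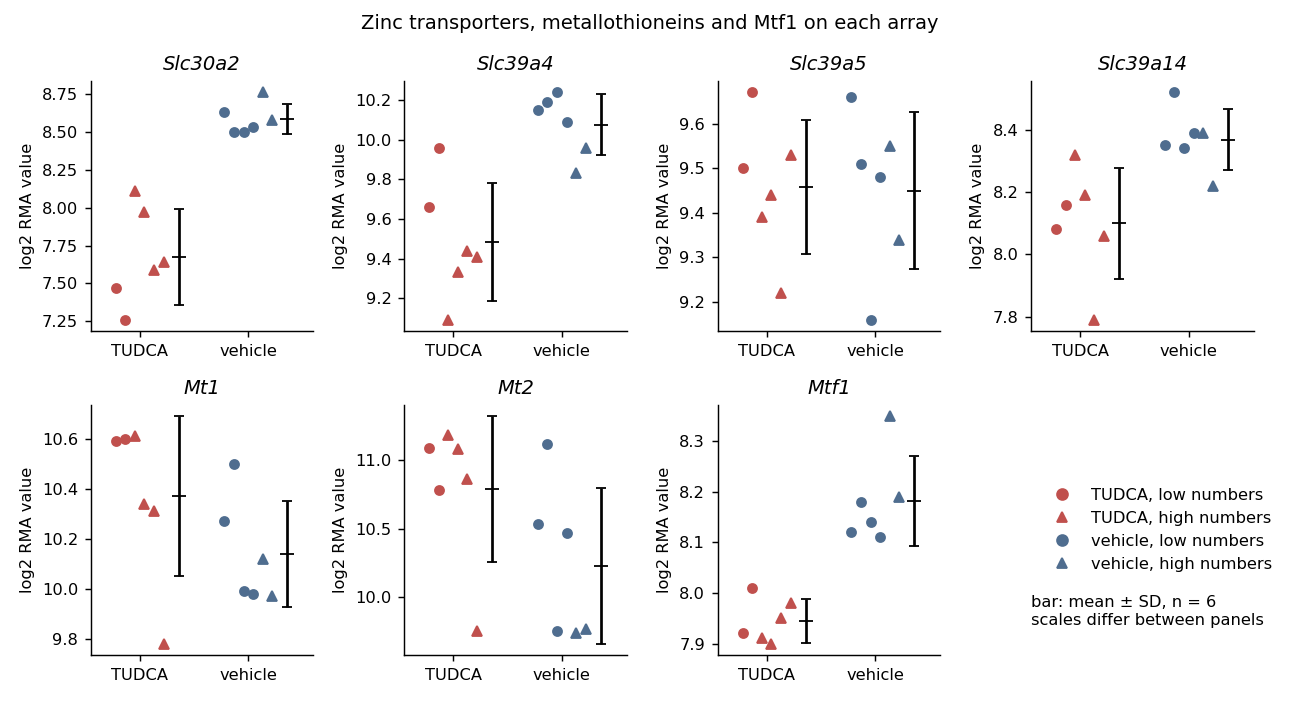
Log2 value of each of the 7 measured genes on each array, with TUDCA left of vehicle, circles for low and triangles for high sample numbers, and a bar for the mean ± SD (n = 6). Slc30a2 (highest TUDCA value 8.11, lowest vehicle value 8.50) and Mtf1 (8.01 and 8.11) separate the groups, whereas Mt1 and Mt2 overlap and each has 1 TUDCA array, replicate 6, near the lowest vehicle values.

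Slc30a2 showed the largest of the 7 differences in size. Its log2 values under TUDCA were 7.26 at the lowest, 7.62 at the median and 8.11 at the highest, against 8.50, 8.56 and 8.76 under vehicle. All 6 TUDCA arrays thus lay below all 6 vehicle arrays, and they were also further apart from each other (SD 0.31 under TUDCA and 0.10 under vehicle). The fitted difference was −1.01 ± 0.10 (SE, 95% interval −1.23 to −0.79), which corresponds to 49.7% of the vehicle level. It was −1.17 within the low and −0.84 within the high number range.

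Among the importers, Slc39a4 was lower under TUDCA. This gene, mutated in the human zinc deficiency acrodermatitis enteropathica, had values of 9.09 at the lowest, 9.43 at the median and 9.96 at the highest under TUDCA, against 9.83, 10.12 and 10.24 under vehicle. The groups overlapped through TUDCA replicate 2, which at 9.96 lay above vehicle replicate 5 at 9.83. The difference was −0.47 ± 0.08 (SE, 95% interval −0.64 to −0.29), or 72.4% of the vehicle level, with −0.36 within the low and −0.57 within the high range. All 6 TUDCA arrays lay below the vehicle mean of their own range.

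The other importers differed less. Slc39a14, a basolateral carrier of zinc, iron and manganese, had TUDCA values of 7.79 at the lowest, 8.12 at the median and 8.32 at the highest, against 8.22, 8.37 and 8.52 under vehicle. TUDCA replicate 3, at 8.32, was the array that reached into the vehicle range, and the difference was −0.24 ± 0.09 (SE, 95% interval −0.43 to −0.06). Slc39a5, a basolateral zinc importer that is also strongly expressed in pancreas, had values between 9.22 and 9.67 under TUDCA and between 9.16 and 9.66 under vehicle, with medians of 9.47 and 9.50. Its groups covered nearly the same range, with a difference of 0.04 ± 0.09 (SE, 95% interval −0.15 to 0.23). The interval of Slc39a5 did not reach the size of the difference fitted for Slc39a4.

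Metallothionein genes are the textbook targets of Mtf1, and the sequences around their start sites are shown because the letters of its binding element recur there. Lower-case bases run 5′ to 3′ along the gene, 250 before and 50 after the start site, and capitals mark the metal response element core, TGCACNC or TGCGCNC, on either strand. The windows are RefSeq sequence of build GRCm38.p6, from the C57BL/6J strain rather than from the BALB/c recipients, and lie on the + strand at chr8:94178839-94179138 for Mt1, chr8:94172368-94172667 for Mt2 and chr4:134343216-134343515 for Slc30a2.
Mt1: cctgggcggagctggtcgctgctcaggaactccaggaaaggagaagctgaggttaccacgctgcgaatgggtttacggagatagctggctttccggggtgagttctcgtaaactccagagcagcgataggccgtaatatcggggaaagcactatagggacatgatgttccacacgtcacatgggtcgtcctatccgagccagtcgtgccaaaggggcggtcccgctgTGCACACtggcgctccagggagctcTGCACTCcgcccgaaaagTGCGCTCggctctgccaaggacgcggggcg
Mt2: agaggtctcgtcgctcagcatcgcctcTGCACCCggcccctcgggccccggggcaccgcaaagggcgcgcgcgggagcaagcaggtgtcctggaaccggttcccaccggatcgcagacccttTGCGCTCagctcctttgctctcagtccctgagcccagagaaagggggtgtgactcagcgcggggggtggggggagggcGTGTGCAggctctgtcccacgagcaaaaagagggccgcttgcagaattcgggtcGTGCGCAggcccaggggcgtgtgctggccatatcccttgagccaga
Slc30a2: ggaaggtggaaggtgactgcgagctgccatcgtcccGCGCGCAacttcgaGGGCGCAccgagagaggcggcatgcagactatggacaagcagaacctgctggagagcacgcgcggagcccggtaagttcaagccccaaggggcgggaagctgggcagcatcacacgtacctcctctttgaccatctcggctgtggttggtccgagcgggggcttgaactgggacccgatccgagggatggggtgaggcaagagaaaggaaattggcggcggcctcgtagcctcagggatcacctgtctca

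Mt1 held 3 core matches and Mt2 held 4. The 3 of Mt1 lay near the RefSeq start used here, the first beginning 23 bases before it, whereas those of Mt2 were spread over the window. This contrast depends on where the windows were placed, since other start sites of Mt1 and Mt2 were not examined. Of 32851 windows of this length in the table, 25.7% held at least 1 match, 7.11% at least 2 and 1.97% at least 3. Slc30a2 held 2 matches, both on the reverse strand. Its window was likewise placed on a single annotated start, and other start sites of Slc30a2 were not examined. Whether its matches lie upstream of the coding sequence was not examined either, so that they are not placed in a promoter. Among the genes without a usable probe set, Slc30a1 held 2 and Slc30a10 held 3, of which a pair overlapped on opposite strands. Mtf1 held 0, and the 2 windows of Slc39a5 held 0 and 1. These matches describe letters in a window and say nothing about binding. Windows were found for 7 of the 9 genes.

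**Figure D2:**
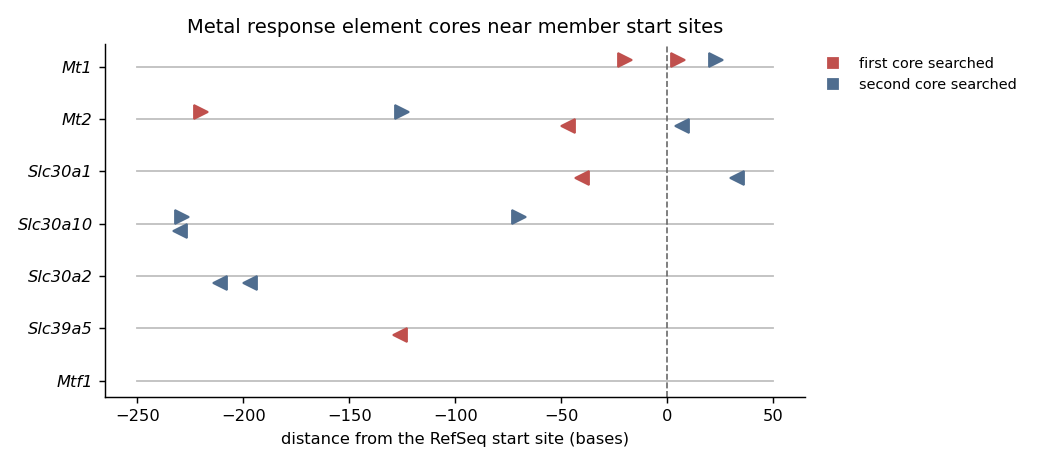
Positions of core matches relative to the RefSeq start site (0, dashed line) for the 7 genes with a window; arrowheads pointing right are on the strand of the gene, those pointing left on the opposite strand, and both windows of Slc39a5 share a line. Mt1 has 3 matches close to the RefSeq start used, Mt2 has 4 spread over its window, and Mtf1 has 0. Positions depend on the start site chosen for each window.

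Mt1 had TUDCA values of 9.78 at the lowest, 10.46 at the median and 10.61 at the highest, against 9.97, 10.06 and 10.50 under vehicle. The groups overlapped, since TUDCA replicate 6 had the lowest value of all arrays and vehicle replicate 2, at 10.50, exceeded 3 TUDCA arrays. The difference was 0.31 ± 0.13 (SE, 95% interval 0.03 to 0.59), with 0.41 within the low and 0.21 within the high range. It did not pass the threshold over all probe sets.

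Mt2 spread more widely, with TUDCA values of 9.75 at the lowest, 10.97 at the median and 11.18 at the highest, against 9.74, 10.12 and 11.12 under vehicle. TUDCA replicates 1 to 5 were at 10.78 or above, whereas 3 vehicle arrays lay between 9.74 and 9.77, next to TUDCA replicate 6 at 9.75. The difference was 0.72 ± 0.25 (SE, 95% interval 0.17 to 1.26), a change of 1.64-fold, and did not pass the threshold either. It was 0.47 within the low and 0.96 within the high range. For both metallothioneins 5 of 6 TUDCA arrays lay above the vehicle mean of their range. Without TUDCA replicate 6 the difference was 0.86 for Mt2 and 0.39 for Mt1, the highest values with 1 array left out. The lowest such values were 0.62 for Mt2 and 0.26 for Mt1. Without the number range term the difference was 0.56 for Mt2 and 0.23 for Mt1. With a replicate block added to the fit it was 0.33 for Mt2 and 0.1 for Mt1.

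Mtf1 itself was slightly lower under TUDCA. Its values were 7.90 at the lowest, 7.94 at the median and 8.01 at the highest under TUDCA, against 8.11, 8.16 and 8.35 under vehicle. The groups did not overlap, and the TUDCA arrays lay within a narrow band (SD 0.04). The difference was −0.25 ± 0.06 (SE, 95% interval −0.38 to −0.13), or 83.9% of the vehicle level, with −0.17 within the low and −0.34 within the high range. With any 1 of 7 arrays left out (TUDCA replicate 1, 4 or 5, or vehicle replicate 2, 3, 5 or 6) it was no longer among the members past the threshold, and its difference lay between −0.29 and −0.20 over all 12 such fits. Its sign was opposite to that of the differences of Mt1 and Mt2.

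The spread between animals also set the members apart from each other. It enters the test of the treatment difference, so that it is not independent of the choice of genes and is given as a description. After treatment and number range were fitted, Mt2 had a residual SD of 0.52, larger than that of 99.2% of all probe sets, against a median of 0.15 over all. Mt1 followed with 0.26, above 89.9% of probe sets. Mtf1 was at the other end with 0.07, and only 2.89% of probe sets were lower. The remaining members had residual SDs of 0.14 for Slc39a4, 0.15 for Slc39a14, 0.16 for Slc39a5 and 0.18 for Slc30a2.

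Members were further compared between the number ranges and for a treatment effect that differs between them, contrasts that did not choose them. None of the 7 passed as different between the high and low range, nor did any of the 23991 probe sets (0%), although 2523 had an unadjusted p below 0.05 in limma. The range term with the smallest p among the members was that of Slc39a4, with a high minus low log2 difference of −0.38 ± 0.08 (SE, adjusted p = 0.12 in limma). It was 0.30 ± 0.10 for Slc30a2 (SE, adjusted p = 0.309) and −0.46 ± 0.25 for Mt2 (SE, adjusted p = 0.545). The difference between the treatment effects of the ranges passed for 0 members and for 0% of probe sets, with 1843 below an unadjusted p of 0.05. Among members it was between −0.22 for Slc39a4 and 0.49 for Mt2, with adjusted p of 0.699 or more in limma. With 2 arrays in the smaller group of each range, these intervals are wide, 1 SE being 0.51 for Mt2.

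The other genes of the families are those left after the members were chosen for their differences, so that smaller differences among them follow from the choice. Of these 20 genes, 7 of the ZnT family, 11 of the ZIP family and the metallothioneins Mt3 and Mt4, 0 passed the test in either direction in limma, while 3 had higher and 1 lower values at an unadjusted p below 0.05. Their differences lay between −0.18 and 0.23, with a median of 0.04, and the 95% intervals reached from −0.37 to 0.49. Slc30a9, a mitochondrial zinc exporter, came closest. It had 8.99 ± 0.08 under TUDCA and 8.76 ± 0.08 under vehicle (SD, n = 6 each), a difference of 0.23 ± 0.06 (SE, adjusted p = 0.0675 in limma), and its groups did not overlap as higher, which held for 0.800% of probe sets. It passed when dim probe sets were left out (adjusted p = 0.0347 in limma) and with array weights (adjusted p = 0.0421).

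Next in the ZnT family came Slc30a4, an endosomal carrier, at 0.17 ± 0.06 (SE, adjusted p = 0.199), and Slc30a5, a carrier of the early secretory pathway, at −0.17 ± 0.07 (SE, adjusted p = 0.321). In the ZIP family Slc39a11 was at 0.19 ± 0.07 (SE, adjusted p = 0.196) and Slc39a6 at −0.18 ± 0.09 (SE, adjusted p = 0.374). Slc39a9 was at −0.11 ± 0.06 (SE, adjusted p = 0.455). Mt3 and Mt4 follow each other and Mt2 and Mt1 without another protein-coding gene between them in the RefSeq order. Mt3, known from brain, was at 0.04 ± 0.09 (SE, adjusted p = 0.909) and Mt4, known from squamous epithelium, at 0.12 ± 0.17 (SE, adjusted p = 0.82). Both had mean values of 5.68 or less, near or below the median of all probe sets of 5.93, where differences are compressed.

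**Figure D3:**
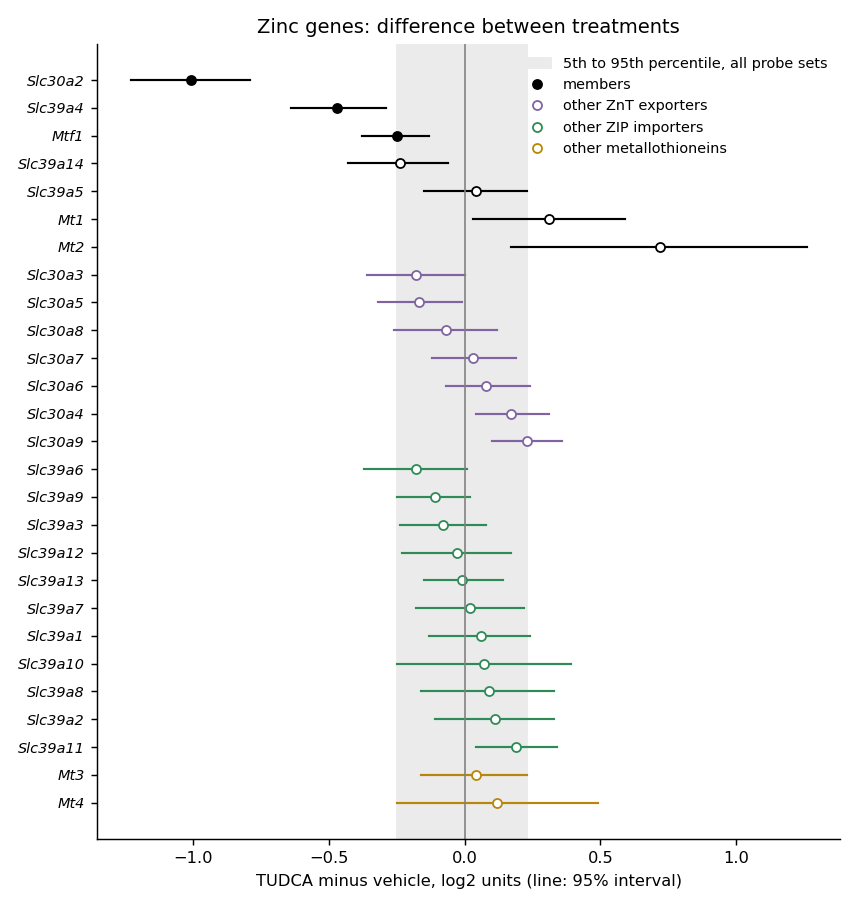
Fitted TUDCA minus vehicle difference in log2 units with its 95% interval for the 7 measured genes (black) and 20 further genes of the families; filled points passed an adjusted p of 0.05, and the grey band spans the 5th to 95th percentile of all probe sets (−0.25 to 0.23). Slc30a2 at −1.01, Slc39a4 at −0.47, Mt1 at 0.31 and Mt2 at 0.72 lie outside the band, and the points of the 20 further genes lie within it or at its edge.

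Genes joined to zinc by regulation or by neighbouring metals were counted in the same fit. Over all probe sets 1.52% were called lower and 1.00% higher, and these shares stand beside each list count that follows. Of 7 further genes reported as Mtf1 targets 1 rose, Gclc, the catalytic subunit of glutathione synthesis, with 9.67 ± 0.19 under TUDCA and 9.25 ± 0.11 under vehicle (SD, n = 6 each; difference 0.43 ± 0.09 SE, adjusted p = 0.0214 in limma). Its call ended without TUDCA replicate 1 or 2. The list median was 0.06, and at an unadjusted p below 0.05 in limma 2 of the 7 were higher and 1 lower. The list also holds Slc39a10, already counted among the ZIP genes above, and Slc40a1, already counted among the proximal genes. It does not separate activated from repressed targets. Slc40a1, the iron exporter ferroportin, was at −0.89 ± 0.25 (SE, adjusted p = 0.0795), with overlapping groups. Selenoh, a selenoprotein, was at 0.19 ± 0.08 (SE, adjusted p = 0.258).

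Of 13 measured copper genes 0 passed in limma (0 higher and 1 lower at an unadjusted p below 0.05, median −0.02). Among them the copper importer Slc31a1 was at −0.24 ± 0.09 (SE, adjusted p = 0.226), and the copper-dependent ferroxidases Heph and Cp at −0.12 ± 0.06 and −0.25 ± 0.16 (SE, adjusted p = 0.362 and 0.547). Of 9 genes of other divalent metals 1 fell, the magnesium channel Trpm6, with 7.22 ± 0.35 under TUDCA and 8.16 ± 0.44 under vehicle (SD, n = 6 each; difference −0.84 ± 0.19 SE, adjusted p = 0.0328). Its call ended without TUDCA replicate 1, 2, 4 or 5 or vehicle replicate 3 or 5. Of the 9 genes 0 were higher and 5 lower at an unadjusted p below 0.05 in limma, among them Slc40a1, which stands on the Mtf1 target list too. The list median was −0.14, against 0.01 over all probe sets.

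Metallothioneins are also induced by glucocorticoids and by acute phase signals, and Slc39a14 by interleukin-6 in mouse liver. Of 12 glucocorticoid response genes 1 rose, the ErbB inhibitor Errfi1 (1.01 ± 0.10 SE, adjusted p = 0.000174 in limma), with a list median of 0.02. At an unadjusted p below 0.05 in limma 4 of the 12 were higher and 1 lower. Of 14 measured acute phase genes 1 fell, Stat3, the transcription factor downstream of interleukin-6, at −0.26 ± 0.06 (SE, adjusted p = 0.0252). Its call ended without TUDCA replicate 2 or vehicle replicate 5 or 6, and without the number range or the variance trend in the fit. The list median was −0.11. Of the 14 genes 0 were higher and 4 lower at an unadjusted p below 0.05 in limma. Of 11 measured targets of the oxidative stress factor NRF2, 3 rose and 1 fell with a median of 0.11. At an unadjusted p below 0.05 in limma 4 of the 11 were higher and 1 lower. The 3 that rose past the adjusted threshold were Nqo1, Gclc and Txnrd1, and the 1 that fell was Osgin1 (−0.49 ± 0.11 SE, adjusted p = 0.0326 in limma). Gclc is the same gene that was counted among the Mtf1 targets. The count of 3 was 0 without TUDCA replicate 1 and 1 without TUDCA replicate 2 or without the number range term, and the call of Osgin1 ended without TUDCA replicate 1, 2 or 5 or vehicle replicate 2, 5 or 6. The copper counts were 0 under all alternatives run, and those of the other lists moved under at least 1.

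Whether members varied together between animals was examined on values centred within treatment and number range, for all 21 pairs. Mt1 and Mt2, neighbours on the chromosome with closely related sequences, correlated with r = 0.89 (Spearman's rho 0.76, n = 12 arrays; exact permutation p = 0.00521 and 0.0204, adjusted over the 21 pairs 0.0592 and 0.214). The relation was similar under TUDCA (r = 0.95) and vehicle (r = 0.80), and r was 0.78 without the 2 arrays farthest from the median of Mt1 (exact permutation p = 0.0625). Cross-hybridisation between these paralogs was not tested. Slc30a2 and Slc39a4, both lower under TUDCA, varied in opposite directions within the groups, with r = −0.85 (rho −0.87, n = 12; exact permutation p = 0.00564 and 0.00608, adjusted 0.0592 and 0.128). Leaving out the 2 arrays farthest from the median of Slc30a2 gave r = −0.72, and r was −0.82 within the low and −0.91 within the high range.

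Neither pair passed after adjustment, and no other pair had a Pearson p below 0.05. Mt1 and Mtf1 had an r of −0.05 (rho −0.03, exact permutation p = 0.887 and 0.911), and Mt1 and Slc39a14 one of 0.46 (rho 0.54, exact permutation p = 0.353 and 0.137). The arrays share 1 normalisation, and the permutations kept each array within its treatment and range.

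**Figure D4:**
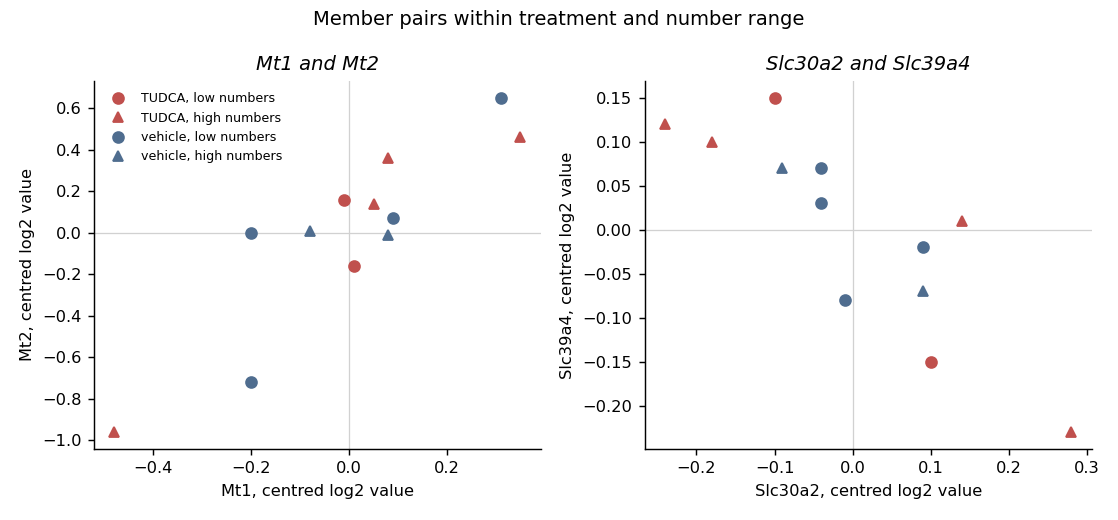
Centred log2 values of Mt1 against Mt2 (left, r = 0.89) and of Slc30a2 against Slc39a4 (right, r = −0.85) on the 12 arrays; colours give the treatment, and circles and triangles low and high sample numbers. The left cloud rises along the diagonal with TUDCA replicate 6 at its lower left end, and the right cloud runs downwards.

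The genes most like Mt1 by Pearson's r of the centred values, among 10703 candidates outside the members, were Tcf25 (r = 0.937), Cyp27a1 (r = 0.935) and Igf1r (r = 0.926). Those most like Slc39a4 were the ribosomal protein pseudogene Rps15a-ps5 (r = 0.95), Baiap2 (r = 0.94) and Mrps25 (r = 0.94). These are the highest of many correlations over 12 arrays and are listed as a description. Of the 6 genes Cyp27a1, a sterol hydroxylase, differed between treatments (−0.74, adjusted p = 0.00171 in limma).

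Markers of the cell types known to express these genes were set beside them. Of 9 measured Paneth cell genes, such as lysozyme Lyz1 and the matrix protease Mmp7, 0 passed in limma (0 higher and 1 lower at an unadjusted p below 0.05, median 0.02). Their summed level in log2 units lay between 12.35 and 13.04 under TUDCA and between 12.15 and 13.41 under vehicle and overlapped between the groups. The Paneth cell defensin Defa26 was at −0.40 ± 0.15 (SE, adjusted p = 0.221). Of 18 enterocyte genes 4 fell and 0 rose, against 1.52% and 1.00% of all probe sets. At an unadjusted p below 0.05 in limma 9 were lower and 0 higher, with a median of −0.15. The 4 that fell were Anpep, Apob, Dpp4 and the peptide transporter Slc15a1, the last with 11.09 ± 0.20 under TUDCA and 11.75 ± 0.11 under vehicle (SD, n = 6 each; difference −0.70 ± 0.08 SE, adjusted p = 0.000788). The summed level of the 18 genes lay between 15.75 and 15.97 under TUDCA and between 15.96 and 16.06 under vehicle, with 1 TUDCA array, replicate 3, reaching the vehicle range. Such sums, here and for the other lists, weigh bright genes most. By the mean of centred log2 values, TUDCA replicates 3 and 4, at 0.08 and 0.01, lay above the lowest vehicle array, replicate 5 at −0.04. Within the TUDCA group replicate 3 had the highest enterocyte sum, the lowest value of Slc39a4 and the highest of Slc30a2. Replicate 2 had the lowest sum, the highest value of Slc39a4 and the lowest of Slc30a2. These arrays lie in different number ranges, replicate 3 in the high and replicate 2 in the low range. The high minus low term was −0.38 for Slc39a4 and 0.30 for Slc30a2. A relation of either gene to the enterocyte sum was not tested.

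Of 12 measured genes of pancreatic acinar cells, which express Slc39a5 and Slc30a2, 0 passed (0 higher and 1 lower at an unadjusted p below 0.05), and their summed level was between 8.77 and 8.97 under TUDCA and between 8.74 and 9.0 under vehicle. Their means over all arrays lay between 3.03 and 6.48. The digestive genes Try4 and Clps were the brightest, with means of 6.53 and 6.21 under TUDCA and 6.42 and 6.41 under vehicle, and Try5 the dimmest, with 2.98 under TUDCA and 3.08 under vehicle. Of 11 measured T and NK cell genes 6 fell, the T cell receptor and coreceptor genes Cd3e, Cd3g, Cd8a and Cd8b1 and the granzymes Gzma and Gzmb. Over all probe sets 1.52% were called lower and 1.00% higher, which applies to each count of this paragraph. The summed level of the T and NK cell genes lay between 9.44 and 10.84 under TUDCA and between 10.77 and 11.54 under vehicle. At an unadjusted p below 0.05 in limma 9 of the 11 were lower and 0 higher, with a median of −0.67. Of 9 genes of small intestinal epithelium 1 rose, the keratin Krt8 (3 higher and 2 lower at an unadjusted p below 0.05). Of 10 goblet cell genes 3 rose, Agr2, Spdef and Spink4 (6 higher and 1 lower at an unadjusted p below 0.05). Of 11 macrophage and neutrophil genes 1 rose, the neutrophil antigen Ly6g (1.26 ± 0.26 SE, adjusted p = 0.0211 in limma), a dim gene with means of 6.03 under TUDCA and 4.78 under vehicle. The neutrophil genes S100a8, S100a9 and Mpo were at 0.05, 0.15 and −0.09. Over the 11 genes 7 differences were negative and 4 positive, with a median of −0.09. Of 10 hepatocyte genes 1 rose, the thyroid hormone carrier Ttr. None of the 10 reticular cell genes passed in limma (1 higher and 0 lower at an unadjusted p below 0.05). The part of cell composition in the members' differences was not tested.

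**Figure D5:**
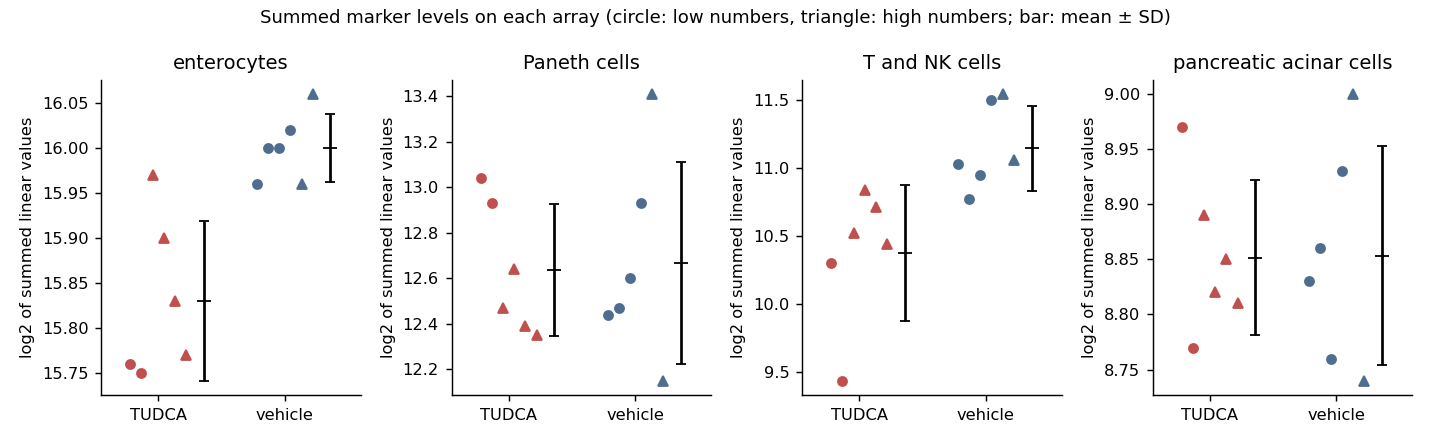
Log2 of the summed linear values of 4 marker lists on each array, TUDCA left of vehicle, with the mean ± SD (n = 6). Enterocyte and T and NK cell sums are mostly lower under TUDCA, and the sums of Paneth cell and pancreatic acinar cell genes overlap throughout.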

How the data were processed

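Total RNA of small intestine was labelled with biotin by the Affymetrix WT Pico kit and hybridised to Affymetrix arrays, per the labels' protocols. The deposited table holds log2 values, made by the authors with oligo and RMA per the submitters' processing notes (background correction, quantile normalisation and probe summary; no versions given). Such values hide a shift of all transcripts in 1 direction and compress differences of dim probe sets. Scanner files were not used here, so that background correction could not be varied.

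Gene names came from the platform's annotation table (21557 named 1 gene, 787 several, 1647 none). limma 3.58.1 in R 4.3.3 (lmFit, eBayes, variance trended on mean level) was fitted to all 23991 probe sets with treatment and number range as terms, two-sided, with Benjamini-Hochberg adjustment over all probe sets and a threshold of 0.05. The script was tested on simulated data. List genes were represented by their brightest probe set. Named were all members, of each pathway list the genes past the threshold or otherwise those with the smallest p, and the 3 genes most like Mt1 and Slc39a4. Marker genes named beside list counts were picked after their values were seen. Members and lists were chosen with earlier results of these data known. Some further genes of the lists are not analysed here. Alternatives covered dropping or splitting by number range, a replicate block, dim probe sets, normalisation, variance model, array weights, threshold and each array in turn. Promoter windows came from RefSeq (GRCm38.p6).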

Additional observations from a re-analysis of the deposited data

Results flagged for a closer look

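In the 14 groups of 6 arrays formed by 7 genes and 2 treatments, 1 array lay far from the others in 3 groups, by the gap to the nearest array as a share of the group's range. Chance gives such a gap in about 1 of 20 groups of independent values from 1 normal distribution. These groups pool both number ranges, and Mt1 and Mt2 vary together (r = 0.89), so that the 3 flags cannot be set against that share. TUDCA replicate 6 was low for both metallothioneins: Mt1 was at 9.78, with the nearest TUDCA array at 10.31, and Mt2 at 9.75, with the nearest at 10.78. Vehicle replicate 5 was high for Mtf1, at 8.35 with the nearest vehicle array at 8.19. Without it the difference of Mtf1 was −0.20.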

How the results depend on the processing

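The directions of Slc30a2, Slc39a4, Slc39a14, Mt1, Mt2 and Mtf1 were the same in all alternatives run, which the choice of members on this contrast makes no sign of stability. That of Slc39a5 turned to −0.04 with the replicate block, −0.05 in the high range alone and −0.02 and −0.01 without TUDCA replicate 2 or vehicle replicate 3, and lay between −0.02 and 0.10 with 1 array left out. The interaction of Slc39a14 lay between −0.02 and 0.16 with 1 array left out. Same-numbered arrays of the groups had correlations between −0.06 and 0.26, of which 3 of 6 did not exceed 0.1, so that the numbers were not taken as pairs, although 4 of 6 TUDCA arrays matched their own number best, a hint from the data and not the design. With the replicate block 85 probe sets were higher and 190 lower, and 1 member was lower (Slc30a2), Slc39a4 and Mtf1 missing the threshold (adjusted p = 0.0563 and 0.183 in limma). The Mtf1 target, acute phase and NRF2 lists had 0 calls with it. The count of lower members, 3, was 1 in the low (Slc30a2) and 0 in the high range alone, where 6 probe sets were higher and 3 lower. Probe sets called higher, 241, numbered 436 with array weights, 429 at a threshold of 0.1 and between 91 and 292 with 1 array left out; those called lower, 364, between 151 and 417. The lowest counts, 91 and 151, came without TUDCA replicate 1; without TUDCA replicate 2 they were 107 and 189, and without vehicle replicate 6 they were 147 and 240. Higher calls were 64.3% and 65.1% of the 241 without vehicle replicate 2 or 3. Mtf1 also missed the threshold after renewed quantile normalisation and without the variance trend (adjusted p = 0.0502 and 0.0578 in limma). Averaging probe sets of a gene was not run, since each member had 1. Signal over background was not recorded in the values, so that dim genes are limited by an unknown floor.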
